A study of Mus musculus with 117 samples.

Results

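In mouse embryonic stem (ES) cells, 2295 genomic regions carried H3K4me3 and H3K27me3 together. They were chosen by the ES peak lists themselves: a region is an ES H3K4me3 peak that shares at least 1 bp with an ES H3K27me3 peak, after repeated lines were removed. They make up 8.72% of the 26309 H3K4me3 peaks of ES cells, and the other 24014 peaks are the comparison used below. Read from the other mark, 2556 of the 5237 ES H3K27me3 peaks, or 48.8%, touched H3K4me3. Because both ES marks made the choice, their ES values are given as a description without a test.

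H3K4me3 is trimethylation of lysine 4 of histone H3, placed by the Set1 and MLL complexes, and it marks promoters that can be transcribed. H3K27me3 is trimethylation of lysine 27, placed by Polycomb repressive complex 2 (PRC2) through its enzyme Ezh2, and it marks silenced genes. Regions with both are called bivalent, and in ES cells they are known at promoters of developmental regulators that are silent or low until differentiation, when one of the marks is usually kept. H3K27ac, acetylation of the same lysine that PRC2 methylates, marks active promoters and enhancers, so a single histone tail cannot hold both. SUMO is a small protein joined to lysines of other proteins, many of them chromatin factors, and Ubc9 is the enzyme that joins it.

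The study followed chromatin and RNA while fibroblasts were reprogrammed with or without Ubc9. D4 shUbc9 cells were embryonic fibroblasts (MEF) that had expressed Oct4, Klf4, Sox2 and Myc (OKSM), which drive reprogramming, for 4 days and carried a short hairpin RNA against Ubc9. D4 shCtrl cells had the same 4 days of OKSM and a control hairpin. ES siUbc9 and ES siCtrl cells were ES cells given a small interfering RNA against Ubc9 or a control one, and they were used for RNA and H3K9me3. ES cells were wild type at passages 15 to 20, and MEF were wild type, from E13.5 embryos and at passage 1, with MEF shCtrl, which carried the control hairpin, as their RNA group. The mouse strain is not stated in the labels. Histone marks were profiled on sonicated chromatin, with antibodies Millipore 17-614 for H3K4me3, Millipore 07-449 for H3K27me3 and Abcam ab4729 for H3K27ac.

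For each antibody and condition the authors deposited 1 peak list made from 2 samples, so no replicate spread can be given for a region and no peak comparison here carries a test. A region has or lacks a peak in a list, and every share below is a share of regions. A peak that is absent from a list may still have signal under the authors' threshold, which no source used here gives. Positions are on mm9, counted from 1.

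In ES cells the bivalent regions had a median H3K4me3 width of 1438 bp (quartiles 1041 and 1989 bp), against 1322 bp for the other H3K4me3 peaks. Their H3K4me3 was of middling strength. The median rank of their score within the list was percentile 44.4, against 51.4 for the other peaks, and 5 of them, 0.218%, were among the highest-scoring 10% of H3K4me3 peaks, against 10.9% of the other peaks. The score is the authors' own value per peak, 10 times its −log10 p, and is used only to rank peaks. H3K27me3 covered a median of 63.8% of a bivalent region (quartiles 33.3% and 94.4%). It covered 428 regions from end to end, and it covered under 10% of 120. The H3K27me3 peaks on the regions had a median width of 1568 bp and a median score percentile of 60, against 868 bp and percentile 40.5 for the 2681 ES H3K27me3 peaks away from H3K4me3.

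The regions lay mostly alone. Counting regions less than 10 kb apart as a group, 1607 stood by themselves, 278 groups held 2 or 3, and 17 groups held 4 or more, with 73 regions in all. The group with the most members, chr2:74505639-74550726, held 7 regions and 17 ES H3K27me3 peaks over 45.1 kb. H3K27me3 covered 84.3% of that stretch in ES cells, 67.4% at D4 shUbc9, 81.6% at D4 shCtrl and 80.9% in MEF. All 7 of its regions had H3K4me3 at D4 shUbc9, against 6 at D4 shCtrl and 3 in MEF, while H3K27ac was on 3 of them at D4 shUbc9, on 5 at D4 shCtrl and on none in MEF. A group on chr4:22404373-22426189 held 5 regions, all with H3K27me3 at D4 shUbc9, at D4 shCtrl and in MEF. Of its 5 regions, 3 had H3K4me3 at D4 shUbc9 and none had it at D4 shCtrl or in MEF. In no other of the 17 groups did the D4 lists differ as much in H3K4me3. The other group of 5, chr11:85642649-85655652, had it on 3 regions in both D4 lists and on none in MEF. The D4 shUbc9 H3K4me3 list also reaches lower scores than the D4 shCtrl list, as described below.

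At the edge of the rule, values inside and outside were alike in size. Of 37 regions that met H3K27me3 by less than 50 bp, 17 had H3K27me3 at D4 shCtrl and 11 in MEF. Of 32 H3K4me3 peaks that missed an H3K27me3 peak by less than 50 bp, 14 had it at D4 shCtrl and 12 in MEF.

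H3K27ac was nearly absent from bivalent regions in ES cells. It was on 75 of 2295 regions, 3.27%, against 52.5% of the other H3K4me3 peaks and 48.2% of all H3K4me3 peaks. H3K9me3, a mark of heterochromatin, was on 15 regions in ES cells, 0.654% against 0.498% of all H3K4me3 peaks. It was on 4 regions in ES siUbc9 cells, 0.174% against 2.18%, and on 7 in ES siCtrl cells, 0.305% against 2.36%. H3K4me1, which marks enhancers, was on 27 regions in MEF, 1.18%, against a background of 3.69% of all H3K4me3 peaks.

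**Figure D1:**
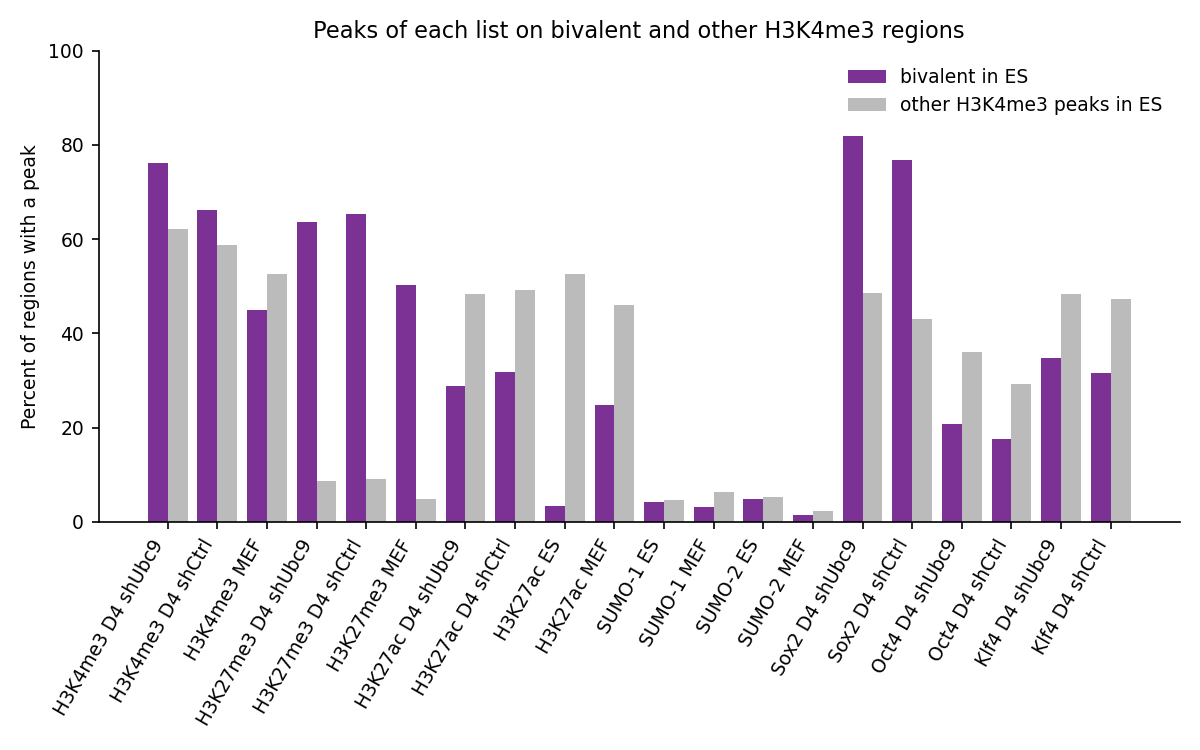
Percent of bivalent regions (purple, n = 2295) and of other ES H3K4me3 peaks (grey, n = 24014) that overlap a peak of each list, with 1 pooled list per antibody and condition and so no error bars. The H3K27me3 bars of the bivalent regions stand at 63.6%, 65.4% and 50.3% beside 8.56%, 9.08% and 4.79% for the others, and the H3K27ac bars are lower for the bivalent regions in all 4 lists.

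In MEF, most bivalent regions carried one mark without the other. H3K27me3 was present on 1154 regions, 50.3%, where the background over all H3K4me3 peaks was 8.76%. H3K4me3 was present on 1033 regions, 45.0%, against a background of 51.9%. Together on a region they were found 170 times, 7.41%, where the background was 1.18%. H3K4me3 alone was on 863 regions (37.6%), H3K27me3 alone on 984 (42.9%) and neither mark on 278 (12.1%). Of the ES H3K27me3 peaks away from H3K4me3, 39.1% had H3K27me3 and 6.75% had H3K4me3 in MEF.

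H3K27ac in MEF sorted with these classes. It was on 567 regions, 24.7%, against a background of 44.1%. Regions with H3K4me3 alone had it in 543 of 863 cases, 62.9%, and regions with H3K27me3 alone in 3 of 984. Regions with both marks had it in 16 of 170 cases, 9.41%. The other H3K4me3 peaks sorted the same way. They had H3K27ac in 82.8% of cases with H3K4me3 alone, 0.0989% with H3K27me3 alone and 6.43% with both marks. In ES cells the median width was 1784 bp for the regions with both marks in MEF, 1601 bp for those with H3K4me3 alone, 1341 bp for those with H3K27me3 alone and 1065 bp for those with neither.

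Some named regions show what these classes look like. The region at chr11:87170943-87173160 had H3K4me3 and H3K27me3 in MEF and in both D4 lists, with H3K27ac in none of them and Sox2 in both D4 lists. At chr9:66766413-66768265 MEF had H3K4me3 and H3K27ac without H3K27me3, and both D4 lists showed the same marks with Oct4, Sox2 and Klf4 added. At chr12:77810124-77812355 MEF had H3K27me3 alone, and both D4 lists had H3K4me3 and H3K27me3 with Sox2 and without Oct4 or Klf4. At chr5:137506890-137508732 MEF had neither mark, and both D4 lists had both. These regions were taken by the rank of their ES H3K4me3 score within a class, so they are stronger than the typical member in H3K4me3 only. ES H3K27me3 covered 29.6% to 53.8% of each, against a median of 63.8% over all bivalent regions. Those on chr9 and chr12 had ES H3K27me3 score percentiles of 7.72 and 12.4, and both had H3K27ac in ES cells.

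The ES strength of a mark went along with its presence at D4 and in MEF. Regions were split into 4 groups of about equal size by ES H3K27me3 score. From the lowest to the highest group, H3K27me3 was on 50.9%, 59.6%, 68.4% and 75.6% at D4 shUbc9. At D4 shCtrl the shares were 53.1%, 61.8%, 69.5% and 77.2%, and in MEF 35.5%, 44.6%, 56.5% and 64.5%. Split by ES H3K4me3 score instead, H3K4me3 was on 52.1%, 70.2%, 87.1% and 94.9% at D4 shUbc9, on 42.2%, 57.1%, 74.5% and 90.4% at D4 shCtrl, and on 24.0%, 34.0%, 48.7% and 73.3% in MEF. A higher H3K4me3 score went with less H3K27me3 elsewhere: in MEF it was on 59.4% of the lowest and 34.8% of the highest group. Split by ES H3K4me3 width, H3K4me3 in MEF climbed as well, at 28.2%, 39.4%, 49.2% and 63.2%. H3K27me3 in MEF did not climb with width, at 52.1% of the narrowest and 45.3% of the widest group. The part of width was not tested, and the other H3K4me3 peaks are not split here.

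**Figure D2:**
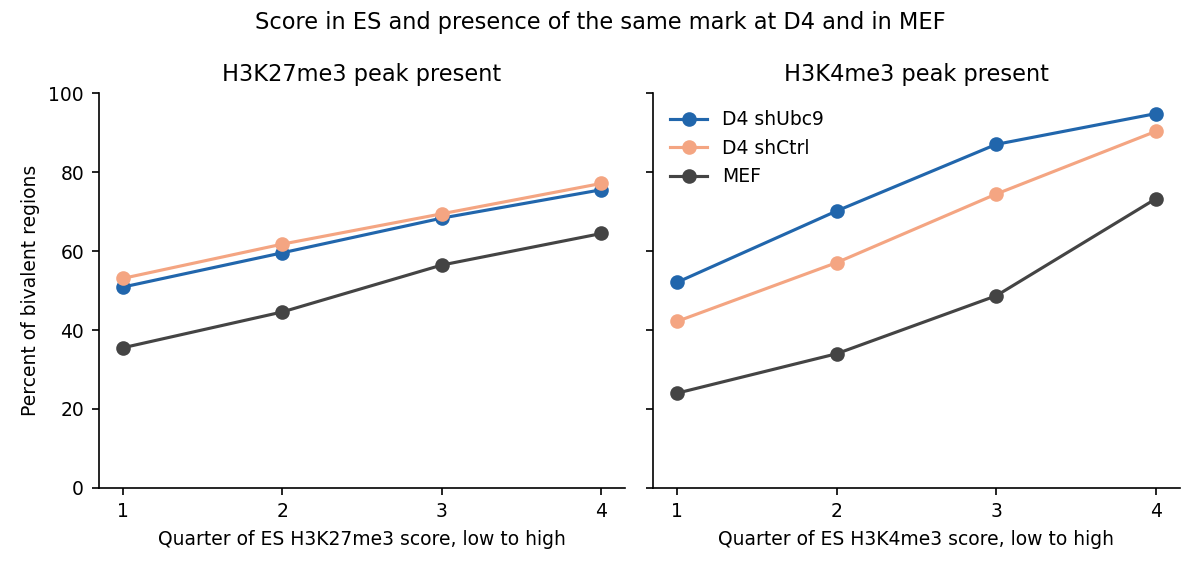
Percent of bivalent regions (573 or 574 in each group) that have a peak of the same mark at D4 shUbc9, D4 shCtrl and in MEF, by group of the ES score of that mark, low to high. All 6 lines climb from group 1 to group 4, in MEF to 64.5% for H3K27me3 and 73.3% for H3K4me3.

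After 4 days of OKSM with the control hairpin, more bivalent regions had each mark than in MEF. H3K4me3 was on 1516 regions at D4 shCtrl, 66.1%, against 1033 in MEF, where the D4 shCtrl background over all H3K4me3 peaks was 59.3%. It was present at D4 shCtrl and absent in MEF on 494 regions, 21.5% against 6.5% of the other H3K4me3 peaks, and the opposite held for 11, 0.479% against 0.404%. H3K27me3 was on 1501 regions at D4 shCtrl, 65.4%, against 1154 in MEF, with a D4 shCtrl background of 14%, and 381 regions, 16.6%, had it at D4 shCtrl alone against 34, 1.48%, in MEF alone. Of the other peaks 4.71% had it at D4 shCtrl alone and 0.429% in MEF alone. H3K27ac was on 733 regions at D4 shCtrl, 31.9%, against 567 in MEF, with a background of 47.8%.

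The lists differ in length and peak width, and the direction was the same with lists of equal length, a setting chosen after seeing the data. The D4 shCtrl list held 16322 H3K4me3 peaks and the MEF list 15052, and for H3K27me3 they held 7236 and 11276, with median widths of 2461 and 1199 bp. With both lists kept to the same number of highest-scoring peaks, H3K4me3 was on 1377 regions at D4 shCtrl against 1033 in MEF, and H3K27me3 on 1501 against 1058. With both lists kept from the same lowest score, H3K27me3 was on 1501 regions against 734, a net of 33.4 percentage points in place of 15.1, and H3K27ac had a net of 13.2 in place of 7.23. The wider H3K27me3 peaks at D4 covered 1069 of the 1501 regions from end to end at D4 shCtrl, against 487 of 1154 in MEF, and the part of peak width in these counts was not tested.

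Regions with both marks were therefore more common at D4. Both were on 782 regions at D4 shCtrl, 34.1%, where the background was 6.34%, against 170 regions in MEF. Of the 984 regions with H3K27me3 alone in MEF, 367, or 37.3%, had both marks at D4 shCtrl and 601 had H3K27me3 alone. Among the other ES H3K4me3 peaks with H3K27me3 alone in MEF, 256 of 1011, or 25.3%, had both. Of the 863 with H3K4me3 alone in MEF, 195 had both marks at D4 shCtrl, 22.6%, against 2.4% of the corresponding other peaks. Of the 170 with both marks in MEF, 149 had both at D4 shCtrl, 87.6% against 83.6% of the corresponding other peaks. Of the 278 with neither, 71 had both, 107 had H3K27me3 alone, 43 had H3K4me3 alone and 57 had neither there. Of the other peaks with neither in MEF, 2.04% had both and 81.7% had neither at D4 shCtrl. Whether both marks sat on the same allele or in different cells of the population cannot be told apart in these lists.

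**Figure D3:**
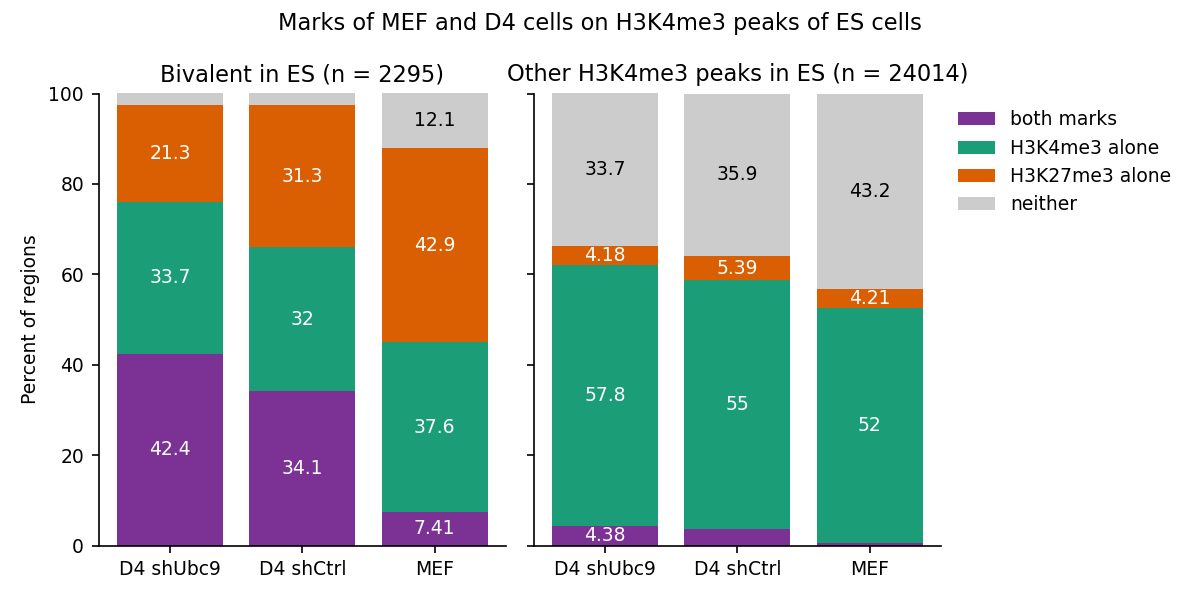
Percent of bivalent regions (left, n = 2295) and of other ES H3K4me3 peaks (right, n = 24014) with both marks, 1 mark or neither at D4 shUbc9, D4 shCtrl and in MEF. Both marks are on 42.4%, 34.1% and 7.41% of the bivalent regions, and on 4.38%, 3.69% and 0.583% of the other peaks.

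At D4, H3K4me3 was listed on more bivalent regions in shUbc9 than in shCtrl cells, and most of that excess consisted of low-scoring peaks. It was on 1746 regions in D4 shUbc9, 76.1% with a background of 63.4%, against 1516 in D4 shCtrl. It was in the shUbc9 list alone on 236 regions, 10.3% where the background was 4.22%, and in the shCtrl list alone on 6, where the background was 0.209%. The shUbc9 list held 18698 peaks with a lowest score of 340, against 16322 peaks with a lowest score of 640 in shCtrl. Of the 236 regions, 151, or 64%, had only shUbc9 peaks scoring under 640. With both lists kept from 640 upward, a setting chosen after seeing the data, 85 regions had H3K4me3 in shUbc9 alone against 42 in shCtrl alone, and the net excess fell to 1.87 percentage points in place of 10.0. Among the other H3K4me3 peaks that setting gave 285 against 278, a net of 0.0291 points. With lists of equal length the net was 1.57 points for the bivalent regions, and the other peaks gave 270 against 285. The threshold and the depletion cannot be told apart for the low-scoring peaks.

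In most other lists the 236 regions resembled the 543 regions with H3K4me3 in neither D4 list. H3K27me3 was on 225 of them at D4 shUbc9, on 226 at D4 shCtrl and on 193 in MEF. H3K4me3 in MEF was on 6, and H3K27ac was on 2 at D4 shUbc9, on 3 at D4 shCtrl and on 2 in MEF. Sox2 was on 197 at D4 shUbc9 and on 194 at D4 shCtrl. Of the 543, H3K27me3 was on 88.8% at D4 shUbc9, 90.8% at D4 shCtrl and 76.2% in MEF, H3K4me3 in MEF was on 0.921%, and Sox2 was on 69.8% at D4 shUbc9 and 66.1% at D4 shCtrl. Within the shUbc9 list their H3K4me3 peaks had a median score percentile of 9.62, against 41.5 for the 1510 regions in both lists. One of them, chr8:72607062-72609103, had H3K27me3 in MEF and in both D4 lists, Sox2 in both D4 lists, and H3K4me3 at D4 in shUbc9 alone.

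H3K27me3 on the regions was largely shared between the D4 lists. It was on 1460 regions in D4 shUbc9, 63.6% with a background of 13.4%, against 1501 in D4 shCtrl, and 1413 had it in both. It was in the shUbc9 list alone on 47 regions, 2.05% against a background of 0.969%, and in the shCtrl list alone on 88, 3.83% against a background of 1.6%. The direction turned with the threshold: the lists' lowest scores were 240 in shUbc9 and 170 in shCtrl, and with both kept from 240 upward 123 regions, 5.36%, had it in shUbc9 alone against 40, 1.74%, in shCtrl alone. The other H3K4me3 peaks turned the same way, at 1.89% against 0.5%. Of the 88 regions with H3K27me3 in shCtrl alone, 73 had H3K4me3 in the shCtrl list, 38 had H3K27ac there and 29 had H3K27me3 in MEF. The region at chr2:76243635-76245851 was one, with H3K4me3 and H3K27ac in both D4 lists and in MEF.

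H3K27ac was on fewer bivalent regions in shUbc9 than in shCtrl cells under every setting tried. It was on 664 regions in D4 shUbc9, 28.9% with a background of 46.7%, against 733 in D4 shCtrl. It was in the shUbc9 list alone on 40 regions, 1.74% with a background of 2.27%, and in the shCtrl list alone on 109, 4.75% with a background of 3.36%. The lists were alike in length, at 25849 and 25719 peaks, and in lowest score, at 360 in both. Of the 109 regions, 107 had H3K4me3 at D4 shUbc9, 106 at D4 shCtrl and 89 in MEF, while 34 had H3K27ac in MEF. The region at chr10:19652900-19655580 had H3K4me3 in MEF and in both D4 lists, no H3K27me3 in any of them, and H3K27ac at D4 in shCtrl alone. With 1 list a condition, these differences have no replicate check.

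**Figure D4:**
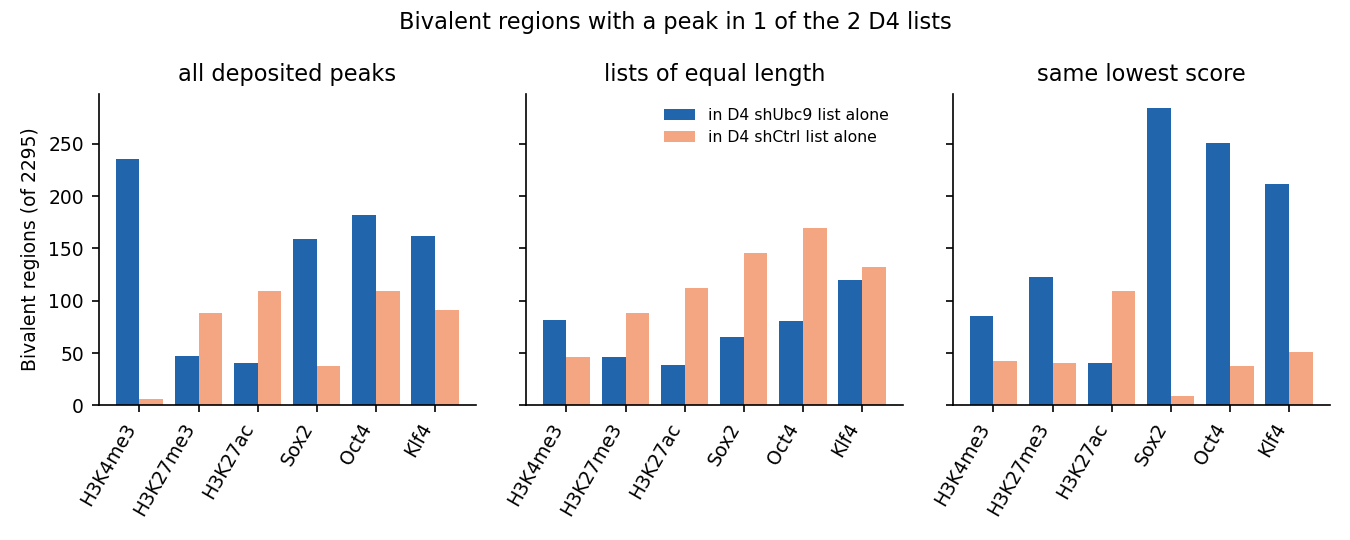
Number of bivalent regions (of 2295) with a peak in the D4 shUbc9 list alone (blue) or the D4 shCtrl list alone (orange), for all deposited peaks, for lists of equal length and for lists from the same lowest score. The H3K4me3 bars change from 236 and 6 with all peaks to 82 and 46 at equal length, H3K27ac stays at 39 or 40 against 109 to 112, and Sox2, Oct4 and Klf4 change sides.

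Taking both marks at once, 1921 regions, 83.7%, were in the same state in both D4 conditions, against 94.1% of the other H3K4me3 peaks. Both marks were on 972 regions in D4 shUbc9, 42.4% with a background of 7.69%, against 782 in D4 shCtrl. Of the 719 regions with H3K27me3 alone in D4 shCtrl, 224, or 31.2%, had both marks in D4 shUbc9 and 480 had H3K27me3 alone. Of the corresponding other peaks 19.2% had both. Of the 782 regions with both marks in D4 shCtrl, 703, or 89.9%, had both in D4 shUbc9 and 73 had H3K4me3 alone. The corresponding other peaks kept both in 77.1% of cases. Of the 734 regions with H3K4me3 alone in D4 shCtrl, 690, or 94%, were the same in D4 shUbc9. The corresponding share of the other peaks was 98.9%. H3K27ac was on 90 of the 972 regions with both marks in D4 shUbc9, 9.26%, against 135 of 782, 17.3%, in D4 shCtrl. Of the other H3K4me3 peaks with both marks, 7.03% had it in D4 shUbc9 against 13.4% in D4 shCtrl. Of the 984 regions with H3K27me3 alone in MEF, 546, or 55.5%, had both marks in D4 shUbc9 against 367, or 37.3%, in D4 shCtrl. The 1011 other peaks of that class moved the same way, at 391, or 38.7%, against 256, or 25.3%. These counts carry the H3K4me3 threshold described above, and both D4 comparisons use the same D4 shCtrl lists.

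Bivalent H3K4me3 peaks were also found by the same rule outside ES cells. At D4 shUbc9 there were 2119, 11.3% of the H3K4me3 peaks, of which 970 lay on the ES bivalent regions. At D4 shCtrl there were 1710, 10.5%, of which 770 lay on them. In MEF there were 266, 1.77%, of which 144 lay on them. Most of the remaining D4 ones lay on ES H3K4me3 peaks without H3K27me3, since 93.7% at D4 shUbc9, 95.3% at D4 shCtrl and 90.6% in MEF touched some ES H3K4me3 peak.

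Few bivalent regions carried SUMO, and few of the other H3K4me3 peaks did. SUMO-1 (Abcam ab32058) and SUMO-2 (a gift antibody from Dr. M. Dasso) were profiled in ES cells and MEF, and 2118 regions, 92.3%, had a peak in none of the 4 lists. In ES cells SUMO-1 was on 97 regions, 4.23% with a background of 4.59%, and SUMO-2 on 113, 4.92% with a background of 5.28%. In MEF SUMO-1 was on 74 regions, 3.22% with a background of 6.02%, and SUMO-2 on 33, 1.44% with a background of 2.25%. Either protein was on 5.45% of the regions in ES cells, against 6.12% of the other H3K4me3 peaks, and on 3.27% against 6.51% in MEF. The ES shares lie near the background and are not a result about bivalent regions. In ES cells 85 regions had SUMO-1 and SUMO-2 together, in MEF 32, and 23 had SUMO in both cell types. For the 23 and for the 2118 regions without SUMO no background is given here. Of the 24014 other peaks, 918 had both proteins in ES cells and 504 in MEF.

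The regions with SUMO differed between the cell types, in ways the other H3K4me3 peaks shared in part. The 75 with SUMO in MEF had H3K27ac in MEF in 44 cases, 58.7%, against 23.6% of the regions without it, and H3K27me3 in MEF in 15 cases, 20.0%, against 51.3%. Among the other H3K4me3 peaks H3K27ac was on 77.9% with SUMO and 43.7% without, and H3K27me3 on 1.53% and 5.02%. They were wider in ES, with a median of 2045 bp against 1428 bp, and over all regions wider ones had more H3K27ac and less H3K27me3 in MEF. The part of width was not tested. The 125 with SUMO in ES had H3K27me3 in MEF in 54 cases, 43.2%, against 50.7%, and were of ordinary width, with a median of 1480 bp against 1434 bp. H3K9me3 in ES cells was on 10 of these 125 regions and on 0.23% of the regions without SUMO there, and among the other peaks on 4.69% with SUMO and 0.208% without. Of the 75 regions with SUMO in MEF, 1 had H3K27me3 at D4 in the shUbc9 list alone and 8 in the shCtrl list alone, against 46 and 80 of the 2220 without it, a direction that turned with the threshold over all regions. H3K4me3 was in the shUbc9 list alone on 1 of the 75 and on 235 of the 2220, and in the shCtrl list alone on 1 and 5. H3K27ac was in the shUbc9 list alone on 1 and 39, and in the shCtrl list alone on 5 and 104. At D4 shCtrl 66 of the 75, 88%, had H3K4me3, against 65.3% of the regions without SUMO in MEF. Few of the 75 could therefore have H3K4me3 in the shUbc9 list alone. These 1-list counts are not given for the other H3K4me3 peaks by SUMO, so they are not a result about SUMO.

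The region at chr13:22111425-22114875 had SUMO-1 and SUMO-2 in ES cells and in MEF, with H3K4me3 and H3K27ac in MEF and in both D4 lists and no H3K27me3 in any of them. The region at chr10:36693632-36696344 had the same histone marks and the same SUMO peaks. The region at chr9:35365439-35368306 had SUMO-1 and SUMO-2 in ES cells and none in MEF, and had both marks in MEF and in both D4 lists. All of these were taken by the rank of their ES H3K4me3 score and had H3K27ac in ES cells. ES H3K27me3 covered 16.9%, 9.55% and 11.4% of them, in the order given. No SUMO list of D4 cells is analysed here, so the D4 marks are set against SUMO of MEF and ES cells.

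Sox2 occupied most bivalent regions at D4, and Oct4 and Klf4 a minority. These are the reprogramming factors themselves, profiled after MNase digestion. Sox2 was on 1881 regions in D4 shUbc9, 82.0% with a background of 51.5%, against 1760 in D4 shCtrl, 76.7% with a background of 45.9%. Oct4 was on 475 regions in D4 shUbc9, 20.7% with a background of 34.7%, against 402 in D4 shCtrl, 17.5% with a background of 28.2%. Klf4 was on 797 regions in D4 shUbc9, 34.7% with a background of 47.2%, against 726 in D4 shCtrl, 31.6% with a background of 46%. Sox2 without the other 2 factors was on 1092 regions in D4 shUbc9, 47.6% against 8.4% of the other H3K4me3 peaks. In D4 shCtrl it was on 1112, 48.5% against 7.99%.

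The Sox2 peaks on bivalent regions were broad. Their median width was 3456 bp in D4 shUbc9, against 1690 bp on the other H3K4me3 peaks, and 3516 bp in D4 shCtrl, against 1562 bp. Peaks of the other factors were also wider on bivalent regions. Oct4 had 2681 against 1578 bp in D4 shUbc9 and 2455 against 1455 bp in D4 shCtrl. Klf4 had 2341 against 1641 bp and 2363 against 1576 bp. With the regions in 4 groups by ES H3K4me3 width, Sox2 climbed from the narrowest to the widest group. It went from 68.1% to 94.6% in D4 shUbc9 and from 61.7% to 90.6% in D4 shCtrl. The part of peak and region width in the share of regions with Sox2 was not tested. The median score percentile of the Sox2 peaks was 80.1 in D4 shUbc9, against 63.9 on the others, and 77.5 in D4 shCtrl, against 64.5. By contrast the Oct4 peaks on bivalent regions had a median score percentile of 42.9 in D4 shUbc9 and 42.2 in D4 shCtrl. Sox2 went with H3K27me3 as well as with H3K4me3. At D4 shCtrl it was on 648 of the 782 regions with both marks (82.9%), on 559 of the 734 with H3K4me3 alone (76.2%), on 538 of the 719 with H3K27me3 alone (74.8%) and on 15 of the 60 with neither. Among the other ES H3K4me3 peaks at D4 shCtrl, Sox2 was on 66.1% with both marks, 65.7% with H3K4me3 alone and 37.5% with H3K27me3 alone. Oct4 and Klf4 went with H3K4me3 alone, at 37.6% and 67.7% of those regions, against 5.84% and 4.87% of the regions with H3K27me3 alone. The other peaks had the same pattern, at 48.1% and 76% with H3K4me3 alone, against 2.55% and 5.95% with H3K27me3 alone.

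Between the D4 conditions the factors cannot be ordered. Sox2 was in the shUbc9 list alone on 159 regions, 6.93% with a background of 7.72%, and in the shCtrl list alone on 38, 1.66% with a background of 2.11%. The shUbc9 lists were longer for all 3 factors, at 27514 peaks against 20197 for Sox2. With lists of equal length, Sox2 was in shUbc9 alone on 65 regions against 146 in shCtrl alone, Oct4 on 81 against 170 and Klf4 on 120 against 132. With lists from the same lowest score the counts were 284 against 9, 251 against 38 and 212 against 51.

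The RNA of the complexes that write and erase the marks was read in 15 libraries, with 3 in each group and 17389736 to 56590370 gene counts per library. Levels are CPM, the count scaled to the size of its library, and fold changes are from edgeR's quasi-likelihood test with Benjamini-Hochberg adjustment over all genes. The deposited peaks cannot be joined to genes here, so the genes below come from textbook lists and are not the genes of the regions. No label tells if the replicates were separate cultures, so p-values measure the spread between these libraries, which may be technical.

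The core of PRC2 was far higher in ES cells than in fibroblasts. Ezh2, its enzyme, had 171, 186 and 177 CPM in ES siCtrl, against 20.6, 22.6 and 24.6 CPM in MEF shCtrl (8.02-fold higher, edgeR adjusted p = 1.12e-11). The ES siCtrl libraries all lay above the MEF shCtrl ones. Of 12 PRC2 genes, 10 rose and 1 fell in ES siCtrl, where 47.7% of all genes tested rose and 42.8% fell. Jarid2, a PRC2 partner that aids its recruitment, averaged 894 ± 14.2 CPM in ES siCtrl and 27.3 ± 0.544 CPM in MEF shCtrl (SD, n = 3 each). Phf1, a Polycomb-like partner, was the one that fell, to 6.3 ± 0.884 CPM against 32.1 ± 1.47 CPM (SD, n = 3 each). Of 13 genes of the H3K4 methyltransferase complexes, 12 rose and Men1 fell, a fall that was not called when libraries were scaled by their size alone.

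At D4, Ezh2 had 38.6, 42.3 and 42.7 CPM in shUbc9, against 41.9, 37.0 and 37.0 CPM in shCtrl (log2 fold change 0.10 ± 0.08 SE, edgeR adjusted p = 0.277), and the groups overlapped. Of the 12 PRC2 genes 3 rose and 3 fell in D4 shUbc9, where 27.2% of all genes rose and 26.1% fell. Eed, the core subunit that binds H3K27me3, was one of the risers, at 58.5 ± 5.48 CPM in D4 shUbc9 against 45.2 ± 2.76 CPM in D4 shCtrl (SD, n = 3 each, edgeR adjusted p = 0.00383). Epop, a PRC2 partner of ES cells, rose most among them, to 15.6 ± 2.41 CPM against 5.15 ± 0.267 CPM in D4 shCtrl (SD, n = 3 each, edgeR adjusted p = 1.62e-05). Of 20 genes of Polycomb repressive complex 1, which binds H3K27me3 and ubiquitinates histone H2A, 5 rose and 10 fell. Cbx6, a subunit whose family reads H3K27me3, fell to 101 ± 7.43 CPM against 263 ± 14.6 CPM (SD, n = 3 each, edgeR adjusted p = 3.21e-06). Without D4 shCtrl replicate 3, 6 of the 20 fell. Of the H3K4 methyltransferase genes 2 rose and 5 fell, with 2 falls without D4 shUbc9 replicate 1 or D4 shCtrl replicate 3, 3 without D4 shUbc9 replicate 3 or D4 shCtrl replicate 1, 8 without D4 shUbc9 replicate 2 and 9 without D4 shCtrl replicate 2. Kmt2a, an H3K4 methyltransferase, averaged 64.4 ± 18.1 CPM against 138 ± 36.5 CPM (SD, n = 3 each, edgeR adjusted p = 0.00386). The H3K27 demethylases were not called: Kdm6a averaged 55.6 CPM in D4 shUbc9 against 60.4 CPM in D4 shCtrl, and Kdm6b 24.3 against 34.9 CPM (edgeR adjusted p = 0.154 and 0.171).

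In D4 shCtrl against MEF shCtrl, 33.3% of all genes rose and 33.5% fell. With library size alone as the scaling 6418 genes rose and 3908 fell, against 5558 and 5594 with the main scaling. Ezh2 rose, with 41.9, 37.0 and 37.0 CPM in D4 shCtrl against 20.6, 22.6 and 24.6 CPM in MEF shCtrl (edgeR adjusted p = 2.2e-05). Eed and Suz12, its partners in the PRC2 core, averaged 45.2 and 57.6 CPM in D4 shCtrl, against 47.4 and 57.7 CPM in MEF shCtrl (edgeR adjusted p = 0.558 and 0.761). Kmt2b, the H3K4 methyltransferase known for bivalent promoters in ES cells, had 64.6, 45.1 and 79.0 CPM in D4 shCtrl against 42.6, 28.8 and 37.7 CPM in MEF shCtrl (edgeR adjusted p = 0.00453).

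Among expressed genes of the kind known for bivalent promoters in ES cells, most were lower in D4 shUbc9 than in D4 shCtrl. Of all genes tested in this comparison, 26.1% fell and 27.2% rose. Of 60 developmental regulators 36 passed the filter on low counts, and 28 fell and 1 rose, with a median log2 fold change of −0.74 beside −0.01 over all genes. The one that rose was Eomes, a regulator of mesoderm and endoderm, chosen after its value was seen, at 0.712 CPM against 0.135 CPM. Osr1, a regulator of mesoderm, averaged 35.8 ± 1.46 CPM against 76.9 ± 3.69 CPM (SD, n = 3 each, edgeR adjusted p = 4.63e-06). Meis1, a partner of Hox proteins, averaged 31.8 ± 0.997 CPM against 58.8 ± 1.2 CPM (SD, n = 3 each, edgeR adjusted p = 7.59e-06). Of 39 Hox genes, which set position along the body axis, 35 passed, and 28 fell and 1 rose, with a median of −0.77. Hoxb6 averaged 4.8 ± 0.0725 CPM against 11.2 ± 0.0639 CPM (SD, n = 3 each, edgeR adjusted p = 8.13e-06). In MEF shCtrl, Osr1, Meis1 and Hoxb6 averaged 52.5, 47.9 and 10 CPM, so these examples were not silent in fibroblasts.

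Other marker lists moved in the same comparison. The summed level of 12 fibroblast markers was 21500 to 23600 CPM in D4 shUbc9 libraries, against 30400 to 43200 CPM in D4 shCtrl, and 9 of the 12 fell. The sum of 10 markers of pluripotent cells was 50.7 to 60.9 CPM against 28.2 to 39.0 CPM, of which Pou5f1, the gene of the delivered factor Oct4, made up 49.5 ± 6.4 CPM against 31.3 ± 5.65 CPM (SD, n = 3 each). Nanog, another of these markers, averaged 0.837 CPM against 0.399 CPM. The sum of 8 macrophage markers was 178 to 198 CPM against 113 to 120 CPM, with 7 of the 8 risen. The sum of 10 endothelial and epithelial markers was 379 to 412 CPM against 351 to 376 CPM. Their part in the changes of the regulators was not tested, and in bulk samples fewer cells of a type and less RNA per cell cannot be told apart.

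**Figure D5:**
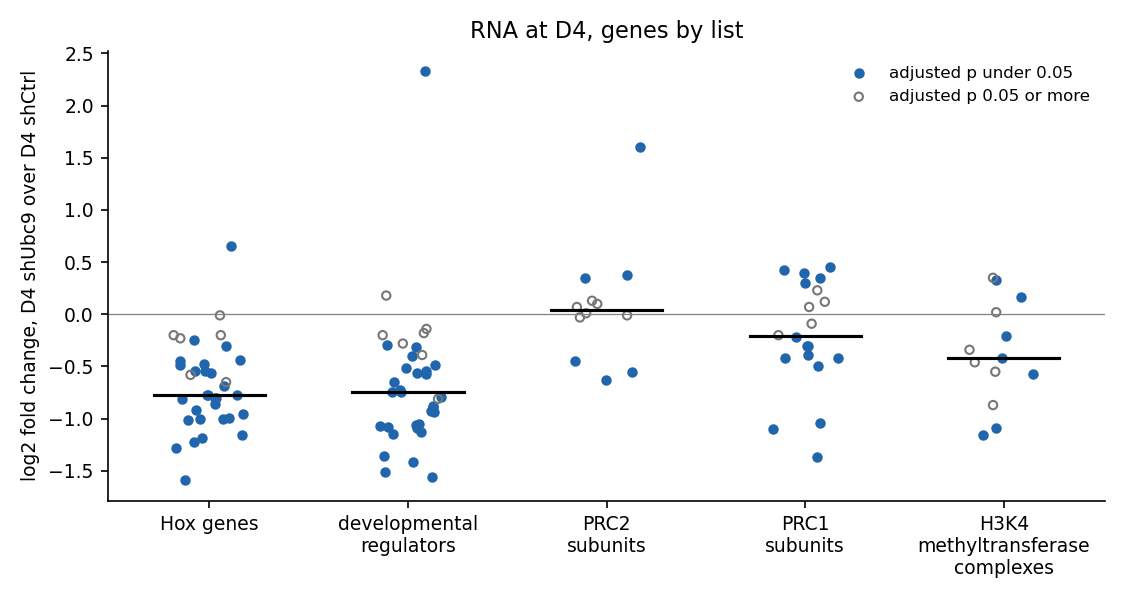
log2 fold change of D4 shUbc9 over D4 shCtrl (n = 3 libraries each) for the genes of 5 lists, with filled points for an edgeR adjusted p under 0.05 and a bar at each list's median. The bars of the Hox genes and the developmental regulators stand at −0.77 and −0.74, and that of the PRC2 subunits at 0.04.

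Most Hox genes were lower in ES cells than in fibroblasts. In ES siCtrl 34 of 39 fell and 4 rose, and Hoxa10 averaged 0.0935 ± 0.0252 CPM against 33.5 ± 1.41 CPM in MEF shCtrl (SD, n = 3 each, edgeR adjusted p = 5.72e-13). Of 52 developmental regulators tested, 31 fell and 20 rose. Prrx1, a regulator of limb mesenchyme, averaged 0.617 ± 0.0238 CPM against 558 ± 32.4 CPM (SD, n = 3 each), and Foxd3, a regulator that ES cells use, 59.7 ± 2.78 CPM against 0.0674 ± 0.0393 CPM (SD, n = 3 each). All genes had a median log2 fold change of 0.13 here, which became 0.27 with library size alone as the scaling.

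With Ubc9 depleted in ES cells, 21.3% of all genes rose and 17.8% fell. Of the 12 PRC2 genes 8 fell and 1 rose, and 4 fell when ES siUbc9 replicate 2, ES siUbc9 replicate 3 or ES siCtrl replicate 3 was left out. Suz12 had 237, 249 and 250 CPM with siUbc9, against 307, 309 and 318 CPM with siCtrl (log2 fold change −0.27 ± 0.05 SE, edgeR adjusted p = 0.00189). Of 42 developmental regulators tested, 18 fell and 3 rose. Isl1, a regulator of motor neurons and heart, was one that rose and averaged 2.14 ± 0.432 CPM with siUbc9 against 0.693 ± 0.169 CPM with siCtrl (SD, n = 3 each, edgeR adjusted p = 0.00048). Of 8 Hox genes that passed the filter, 3 rose, but DESeq2 called 1, 1 rose without ES siUbc9 replicate 1 and 0 rose without ES siUbc9 replicate 2. No H3K4me3 or H3K27me3 list of siUbc9 ES cells is analysed here, so these RNA changes stand without the marks.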

How the data were processed

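The authors deposited 32 peak lists on mm9, 1 for each antibody and condition and pooled over its 2 samples, with a score per peak that equals 10 times the deposited −log10 p column. Tools listed without a role in the submitters' processing notes include MACS2, Bowtie, bedtools 2.19.1, STAR 2.5.0a and featureCounts. The authors deposited RNA as read counts per gene, unnormalized, from stranded total RNA per the labels' protocols, with 26301 genes, of which 24191 identifiers matched a symbol in a RefSeq table of GRCm38.p6, and 799 repeat families, which held 8.6% to 24.8% of the counts of a library and were left out of the library sizes and tests. No source used here gives the strand setting of the counting.

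Identical lines were removed from each list. Regions with at least 1 bp in common were counted as overlapping. No gene or sequence of the regions is used here, since the gene tables at hand are of another build. Counts were tested with edgeR 4.0.16 in R 4.3.3 (filterByExpr, TMM, quasi-likelihood test, two-sided, Benjamini-Hochberg), each comparison with the libraries of its 2 groups, and a gene was called at an adjusted p under 0.05. Standard errors were taken as the log2 fold change over the square root of the F statistic. On counts simulated from the D4 libraries the test was checked with 200 changed genes. Libraries of a group differed from each other by more than counting error and were kept as separate replicates. Same-numbered libraries of D4 shCtrl and MEF shCtrl deviated together (correlations 0.19, 0.43 and 0.16), which pairs them by the data and not by the labels. For ES siUbc9 and ES siCtrl the correlations were 0.2, 0.16 and 0.04, and in the remaining comparisons none was above 0.01. Alternatives were DESeq2 1.42.0 as a test and as size factors, library size alone, no filter, the replicate block, and leaving out single libraries. For peaks they were stricter overlap, the higher-scoring 50% of peaks, and lists of equal length. Lists from the same lowest score, the equal-length lists of D4 shCtrl and MEF, and the D4 against ES test were added after seeing the data.

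The regions, the gene lists and the comparisons were chosen with earlier results of these data known. Regions were named by the rank of their ES H3K4me3 score within a class. Genes were named from each list as the called ones with the smallest p in each direction, at a mean of at least 1 CPM and with no overlap between libraries, beside a fixed set of Polycomb and histone-modifying enzymes. The text gives a part of those named, and some of them are not reported here.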

Additional observations from a re-analysis of the deposited data

Results flagged for a closer look

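The effect of Ubc9 depletion on RNA was set against itself in the 2 cell types with an edgeR interaction test over 12 libraries (D4 shUbc9 against D4 shCtrl, minus ES siUbc9 against ES siCtrl), in which 42.2% of 19343 genes passed an adjusted p under 0.05. The reagents also differ, a hairpin at D4 and a small interfering RNA in ES cells, and cannot be told apart from the cell types. Of the 15 genes named in both comparisons and reported here, 9 passed. Apart from the fixed set, these genes were named for small p-values in the same libraries. The 9 of 15 can therefore not be set against the 42.2% of all genes. The difference of log2 fold changes was 2.49 for Epop (1.6 at D4, −0.83 in ES cells, adjusted p = 1.35e-08), 0.66 for Eed (adjusted p = 0.000297), 0.61 for Rnf2 (adjusted p = 0.000649), 0.56 for Wdr5 (adjusted p = 0.000214), 0.49 for Ezh2 (adjusted p = 0.000841) and 0.47 for Suz12 (adjusted p = 0.000249). It was 0.28 for Men1, −0.22 for Kdm6a and −0.34 for Tek. For Eed, the change was 0.38 at D4 and −0.21 in ES cells.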

How the results depend on the processing

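Of the peak results, H3K27ac at D4 (shUbc9 minus shCtrl, −3.01 percentage points) and the D4 shCtrl excess over MEF kept their direction under every alternative run on them. For shUbc9 minus shCtrl in percentage points, H3K4me3 gave 10.0, and 4.84 with the higher-scoring 50% of peaks, 1.57 at equal length and 1.87 from the same lowest score. H3K27me3 gave −1.79, −1.05 at 50% overlap and 3.62 from the same lowest score. Oct4 gave 3.18, 1.18 with the higher-scoring 50%, −3.88 at equal length and 9.28 from the same lowest score. Sox2 gave 5.27, −3.53 at equal length and 12 from the same lowest score. Klf4 gave 3.09, 1.13 with the higher-scoring 50%, −0.523 at equal length and 7.02 from the same lowest score. The cause of these changes was not tested.

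The share of regions with H3K27me3 in MEF was 43.2% at 50% overlap, 43.2% with the higher-scoring 50% of peaks and 59.6% among regions at least 50% covered by H3K27me3 in ES cells. The last 2 settings gave 12.5% and 37% for H3K4me3, 15.9% and 19.1% for H3K27ac, 2.18% and 2.32% for SUMO-1 and 0.828% and 0.868% for SUMO-2.

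The counts of called genes stayed within 1.5 times. Leaving out 1 library gave 7281 to 8937 genes for D4 shUbc9 against shCtrl (9051), 10011 to 11369 for D4 shCtrl against MEF (11152), 16185 to 16617 for ES siCtrl against MEF (16418) and 5176 to 7582 for ES siUbc9 against siCtrl (6986). The replicate block gave 7497, 12218, 16086 and 8003, and it changed no call of a named gene between D4 shCtrl and MEF, where the numbers pair the libraries. In D4 shUbc9 against shCtrl it lost 3 of 45 named genes, and in ES siUbc9 against siCtrl it gained 1 of 37. None of the named genes reversed, in 2013 refits of single genes, and 71 changed their call. Peak lists from 1 sample were not used here, so the spread between ChIP replicates is unknown.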
